A study of Homo sapiens with 3 samples.

Results

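The c-Jun N-terminal kinase (JNK) cascade was followed through 10 of its genes in PANC-1 cells, an established human pancreatic ductal carcinoma line. The genes were taken from a fixed list of names and not by a rule on their signals. The list was chosen with earlier results of these data known. They were the kinases at the head of the cascade MAP3K1, MAP3K5 and MAP3K11, the intermediate kinases MAP2K4 and MAP2K7, the terminal kinases MAPK9 (JNK2) and MAPK10 (JNK3), and the scaffold genes MAPK8IP1, MAPK8IP2 and MAPK8IP3. All 10 were matched on the array through RefSeq accessions, by 14 probes, among 19699 named genes. MAPK8, which encodes JNK1, is not analysed here because it had no matched probe. Total RNA came from 3 cultures, each hybridised to 1 Agilent 1-colour array. One culture was the control, labelled as given no agent, one was treated with cantharidin and one with okadaic acid. The sample labels give 20 µM and 24 h for each agent. They give no time for the control, so an equal time in culture is not certain. Cantharidin and okadaic acid are both inhibitors of protein phosphatase 2A (PP2A), and the study used okadaic acid as a reference inhibitor beside cantharidin. With 1 array per group there was no replicate, so no test across samples was possible, and the values compare these 3 arrays.

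In the JNK cascade, a MAP kinase kinase kinase (MAP3K) phosphorylates MKK4 or MKK7, the products of MAP2K4 and MAP2K7. These in turn phosphorylate the JNKs, which then phosphorylate c-Jun and other factors of the AP-1 family. The JIP proteins, encoded by the MAPK8IP genes, hold kinases of successive tiers together. The cascade is activated by cellular stress and cytokines and is switched off by phosphatases that remove phosphate from the JNKs. Arrays measure RNA, so neither kinase activity nor phosphorylation was measured.

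Signals are given as processed intensity, the background-subtracted brightness of a spot in the units of the scanner, with the error that the scanner software gave to the spot. A difference is the log2 intensity on one array minus that on another, after each array's 75th percentile had been subtracted, and its error is the spread between replicate spots of equally bright probes (SD). That error covers the noise between spots only and no variation between cultures. A difference of at least 1.5-fold is called higher or lower. A probe is called measured where the scanner software found it well above background. Of 34041 probes, between 23071 and 25103 were measured on an array, and none was saturated. The lowest measured signals of the control, cantharidin and okadaic acid arrays were 35.0, 21.9 and 58.0. All 6 ductal and epithelial marker genes examined (KRT7, KRT8, KRT18, KRT19, EPCAM and SOX9) were measured on every array, at intensities of 342 to 193320, as were the mesenchymal markers VIM and ZEB1. Of 13 markers of acinar, islet, leukocyte, endothelial and neuronal cells, 10 were also measured on every array, at 106 to 11044, while CPA1, PECAM1 and RBFOX3 were measured on none, so being measured did not by itself separate cell types. Under cantharidin the unscaled signals of the ductal and epithelial markers went both ways. Those of SOX9 (1491 beside 12388 in the control), EPCAM (342 beside 1286), KRT8 (20992 beside 51899) and KRT7 (12276 beside 19966) were lower. Those of KRT18 (127869 beside 70664) and KRT19 (3094 beside 2503) were higher. The part of any other cell type in the differences was not tested.

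Under cantharidin, 4 of the 10 genes were higher than in the control (MAP2K4, MAPK8IP3, MAP2K7 and MAP3K11) and 1 was lower (MAP3K5). The other 5 stayed within 1.5-fold. Over all 16644 genes compared, 27.5% were higher and 34.1% lower. The median difference of the members was 0.01 on the log2 scale, beside -0.16 for all genes. Under okadaic acid, 4 genes were higher (MAP3K11, MAP3K1, MAP2K4 and MAP2K7) and 1 was lower (MAPK9), against 28.1% higher and 28.8% lower of 16166 genes, and the members' median was 0.28 beside 0.01. Counted by probe, 5 of 14 were higher and 3 lower under cantharidin, where all probes gave 26.4% and 33.0% of 26769. By probe under okadaic acid, 5 of 13 were higher and 3 lower, where all probes gave 26.5% and 27.7% of 25714. One of these lower probes, the dimmer one of MAP3K5, was not well above background under okadaic acid. With 10 genes, 1 gene more or fewer moves such a share by 10 percentage points, and the counts of members did not set them apart from the genes at large.

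Both intermediate kinases, MAP3K11 and the scaffold gene MAPK8IP3 were the members with a higher signal under cantharidin. Each of these 4 genes had a single promoter window in RefSeq (GRCh38.p14). The 250 bases before the start of the gene are shown because they are the stretch closest to the start of the transcripts that were higher. MAP3K5, which was lower, had more than 1 window, and its windows are not printed. Capitals mark a GC box (GGGCGG, or CCGCCC on the other strand) or the cAMP response element (CRE, TGACGTCA), and each line reads 5′ to 3′ along the gene. The windows lie at chr11:65614222-65614471 on the minus strand for MAP3K11, and on the plus strand at chr17:12020627-12020876 for MAP2K4, chr19:7903627-7903876 for MAP2K7 and chr16:1705945-1706194 for MAPK8IP3.
MAP3K11: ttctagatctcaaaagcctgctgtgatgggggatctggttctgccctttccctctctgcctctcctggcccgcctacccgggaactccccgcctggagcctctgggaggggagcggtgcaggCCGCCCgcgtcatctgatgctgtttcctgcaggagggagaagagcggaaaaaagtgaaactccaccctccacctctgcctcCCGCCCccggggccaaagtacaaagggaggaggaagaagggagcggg
MAP2K4: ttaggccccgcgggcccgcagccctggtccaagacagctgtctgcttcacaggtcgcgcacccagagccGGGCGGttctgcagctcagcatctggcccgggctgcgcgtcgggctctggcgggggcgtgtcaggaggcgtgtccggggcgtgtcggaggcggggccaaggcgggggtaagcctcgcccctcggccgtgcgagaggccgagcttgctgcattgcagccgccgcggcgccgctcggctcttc
MAP2K7: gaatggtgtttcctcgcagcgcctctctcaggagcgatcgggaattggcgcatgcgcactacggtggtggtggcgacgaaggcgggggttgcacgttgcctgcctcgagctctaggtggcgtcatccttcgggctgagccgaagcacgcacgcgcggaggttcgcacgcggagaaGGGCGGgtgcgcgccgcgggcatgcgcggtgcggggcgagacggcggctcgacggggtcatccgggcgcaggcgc
MAPK8IP3: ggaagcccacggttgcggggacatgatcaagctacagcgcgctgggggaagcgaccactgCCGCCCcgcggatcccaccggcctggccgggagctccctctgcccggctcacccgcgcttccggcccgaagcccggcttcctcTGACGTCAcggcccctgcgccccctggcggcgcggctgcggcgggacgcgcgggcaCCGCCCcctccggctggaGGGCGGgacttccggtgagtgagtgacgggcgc

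All 4 windows hold a GC box, with 2 in MAP3K11, 1 each in MAP2K4 and MAP2K7 and 3 in MAPK8IP3, whose window also holds the CRE. A GC box was found in 42.6% of 35116 windows of the same length over all genes, and a CRE in 1.65%. The AP-1 site TGANTCA, found in 6.57% of all windows, was in none of the 4. Both strands were searched. Of the 10 members, 8 had 13 windows in all, and 9 of these held a GC box, 2 a CRE (in MAPK8IP3 and MAPK10) and 1 an AP-1 site (in MAPK10). A GC box was not particular to the genes that were higher. Each window of MAP3K5, lower under cantharidin, held 1, and that of MAPK8IP2, within the threshold, held 3. The windows of members had a median GC content of 64.4%, beside 58% in all windows. MAPK8IP1 and MAP3K1 had no matched window. A match is only a run of letters, and no binding was measured.

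The 3 kinases at the head of the cascade differed from one another. MAP3K11 encodes MLK3, a mixed-lineage kinase that phosphorylates MKK4 and MKK7. Its signal was 16460 ± 1646 in the control, 22565 ± 2256 under cantharidin and 70926 ± 7093 under okadaic acid. It was lowest in the control and far higher under okadaic acid than on either of the other arrays. The differences from control were 0.59 ± 0.10 (1.51-fold higher) for cantharidin and 1.85 ± 0.09 (3.61-fold higher) for okadaic acid, which exceeded those of 72.7% and 91.7% of all genes compared. The value under cantharidin lay just past 1.5-fold. Without scaling between arrays it was 0.46, within the threshold.

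MAP3K1 encodes MEKK1, a kinase that activates MKK4 and also carries a ubiquitin ligase domain. Its signals were 372 ± 38.03 in the control, 260 ± 26.5 under cantharidin and 986 ± 99.4 under okadaic acid. Only the okadaic acid array stood above the control. The difference was 1.15 ± 0.11 (2.22-fold higher) under okadaic acid and -0.38 ± 0.18 (1.30-fold lower, within the threshold) under cantharidin. Between the treated arrays, the signal with okadaic acid was 1.53 ± 0.17 higher on the log2 scale (2.89-fold), more than for 92.1% of the 16200 genes compared and the widest gap between the agents among the 10 genes.

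MAP3K5 encodes ASK1, a kinase that responds to oxidative stress. Its brighter probe read 312 ± 32.2 in the control, 126 ± 13.8 under cantharidin and 338 ± 36.1 under okadaic acid. The cantharidin array was the low one, and the other arrays were close to each other after scaling. The difference was -1.18 ± 0.19 (2.26-fold lower) for cantharidin and -0.14 ± 0.14 (1.104-fold lower) for okadaic acid. It was the one member past the threshold downwards under cantharidin. A second probe, at 51.7 in the control, was not well above background on either treated array (27.4 and 39.8). With okadaic acid only a bound of at least 1.06-fold lower can be given. With cantharidin the dim signal lay above that array's lowest measured one, so 1.71-fold lower is a plain ratio and no minimum. The noise between spots of this probe was wide (SD 0.54 and 0.50 on the log2 scale). With normexp background correction its differences were -0.35 and -0.31, within the threshold.

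**Figure D1:**
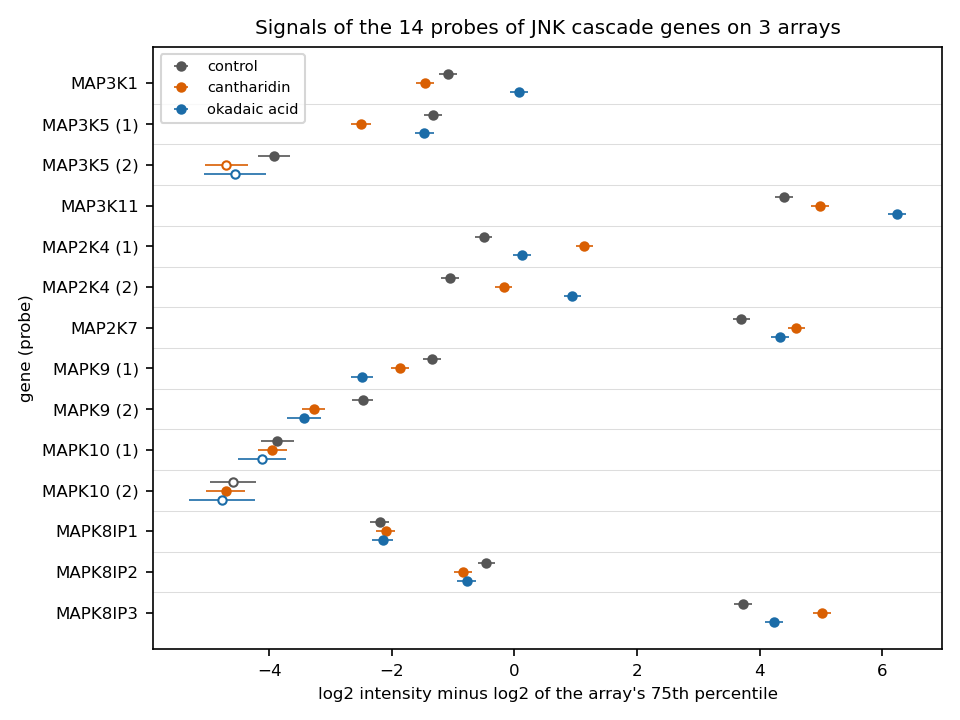
Scaled signals of the 14 probes, as log2 intensity minus log2 of the array's 75th percentile, on the control (grey), cantharidin (orange) and okadaic acid (blue) arrays. Bars are the spot error of the scanner software, open points were not well above background, and (1) and (2) are the brighter and the dimmer probe of a gene with 2. MAP3K11, MAP2K7 and MAPK8IP3 lie above the 75th percentile on all 3 arrays, and both probes of MAPK10 lie in the dimmest range. Positions of different probes on the axis are not levels that can be compared between genes.

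MAP2K4 encodes MKK4, which phosphorylates both JNK and p38. It was read by 2 probes, assigned to the same transcript, and both were measured on all arrays. The brighter probe gave 553 ± 55.9 in the control, 1572 ± 157 under cantharidin and 1024 ± 103 under okadaic acid. On this probe both treated arrays were above the control and cantharidin was the highest, with differences of 1.64 ± 0.14 (3.13-fold) and 0.63 ± 0.10 (1.55-fold). The value under cantharidin exceeded that of 88.5% of all genes. The other probe gave 378 ± 38.5 in the control, 630 ± 63.2 under cantharidin and 1805 ± 181 under okadaic acid. It also put both agents above the control, by 1.83-fold and 3.995-fold, but with okadaic acid as the highest.

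The 2 MAP2K4 probes thus gave the same direction against the control and opposite directions between the agents. Okadaic acid minus cantharidin was -1.01 on the brighter probe (2.02-fold lower) and 1.12 on the other (2.18-fold higher), a gap of 2.14. Of 2814 genes with at least 2 probes measured on all arrays, 3.55% had a wider gap in this comparison, and the median gap was 0.48. The gaps against the control were 0.77 for cantharidin and 1.37 for okadaic acid, exceeded in 38.5% and 17.1% of those genes. No order between the agents can therefore be given for MAP2K4 RNA. The count under okadaic acid also leaned on the probe: on the brighter one the 0.63 fell to 0.51 when arrays were scaled to their median and to 0.58 with normexp background correction, within the threshold.

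MAP2K7 encodes MKK7, which acts on JNK alone among the MAP kinases. Its signals were 10207 ± 1021 in the control, 17269 ± 1727 under cantharidin and 18856 ± 1886 under okadaic acid. Both treated arrays were above the control. The differences were 0.90 ± 0.10 (1.86-fold higher) and 0.63 ± 0.09 (1.55-fold higher), and okadaic acid minus cantharidin was -0.27 (1.203-fold lower after scaling), within the threshold. As for MAP2K4, the value under okadaic acid dropped within the threshold with median scaling (0.51) and with another background correction (0.57). The 2 agents' differences share the control array, so calls of one gene under both are not independent of each other.

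The terminal kinase MAPK9 encodes JNK2, one of the widely expressed JNKs. Its brighter probe read 309 ± 31.8 in the control, 195 ± 20.3 under cantharidin and 167 ± 20.8 under okadaic acid. Both treated arrays were below the control. The difference was -1.14 ± 0.19 (2.21-fold lower) under okadaic acid, below that of 83.6% of all genes, and -0.52 ± 0.19 (1.43-fold lower) under cantharidin, within the threshold. A second probe, assigned to another transcript of the gene, gave 141 ± 16.6, 73.9 ± 9.60 and 86.7 ± 16.8 in the same order. It was lower by 1.73-fold and 1.94-fold with the respective agents, past the threshold under each, though with normexp background correction these differences were -0.31 and -0.52, within it. Both probes thus placed the control highest, and they differed on whether cantharidin passed 1.5-fold. Cells of a culture were lysed together, so fewer expressing cells and less RNA per cell cannot be told apart here or for any other gene.

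MAPK10 encodes JNK3, known mainly from brain, heart and testis. Its brighter probe read 53.8 in the control, 46.1 under cantharidin and 53.8 under okadaic acid, only 1.54, 2.11 and 0.93 times the lowest measured signal of each array. It was not well above background under okadaic acid. The differences of -0.08 ± 0.41 for cantharidin and -0.26 ± 0.43 for okadaic acid lay within the noise between spots. A second probe (32.7, 27.3 and 34.4) was measured on the cantharidin array alone. At such signals a difference in MAPK10 was not detectable.

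**Figure D2:**
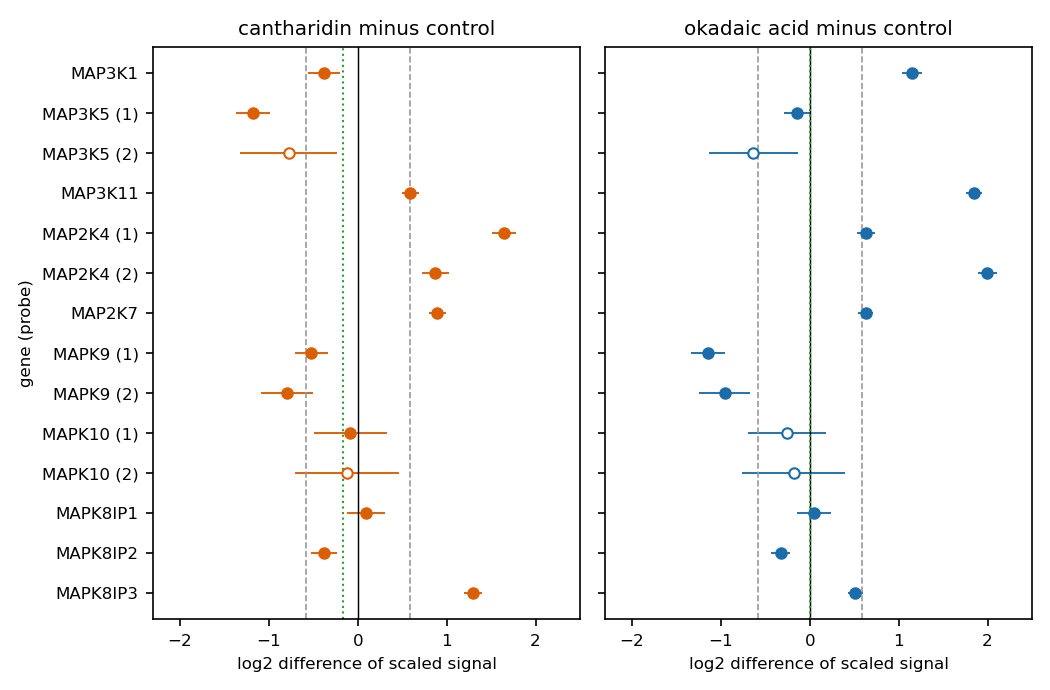
Differences from control for the 14 probes (log2, scaled signal) under cantharidin (left) and okadaic acid (right). Bars are the SD between spots, open points had at least 1 array not well above background, dashed lines mark 1.5-fold and the green dotted line the median of all genes (-0.16 and 0.01). The 2 MAP2K4 probes stand above the upper line under both agents in opposite order, and the MAPK9 probes stand left of zero under both.

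The scaffolds did not move as a set. MAPK8IP3 encodes JIP3, which binds JNK and the motor protein kinesin. Its signals were 10348 ± 1035 in the control, 23132 ± 2313 under cantharidin and 17602 ± 1760 under okadaic acid. Both treated arrays were above the control, cantharidin more so. The difference was 1.30 (2.46-fold higher) for cantharidin, above that of 84.5% of all genes, and 0.51 (1.43-fold higher, within the threshold) for okadaic acid.

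MAPK8IP1 encodes JIP1, the founding scaffold of the family. Its signals of 171 ± 18.7, 166 ± 17.5 and 211 ± 24.3 for control, cantharidin and okadaic acid gave differences of 0.10 and 0.05, each within its noise between spots. MAPK8IP2, which encodes JIP2, read 572 ± 57.7, 400 ± 40.4 and 545 ± 56.0 in the same order, for differences of -0.38 (1.30-fold lower) and -0.33 (1.25-fold lower). Neither gene passed 1.5-fold under either agent.

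The arrays of the agents were also compared directly. The sample labels give the same dose and time for both, but the protocol text can be read as giving the dose for cantharidin only, so an equal dose is not certain. Okadaic acid was higher than cantharidin for 3 members (MAP3K1, MAP3K11 and MAP3K5) and lower for 3 (MAP2K4 on its brighter probe, MAPK8IP3 and MAPK9), while 29.5% of 16200 genes were higher and 22.3% lower. All 3 MAP3K members were among the higher ones, at 1.53, 1.26 and 1.03 on the log2 scale (2.89-fold, 2.39-fold and 2.05-fold). The MAP3K5 value rests on the brighter probe, since the second was not well above background on either array. Of 20 other MAP3K and MAP4K kinases, 7 were higher, 2 lower and 11 within the threshold in this comparison (median 0.31). MAPK8IP3 was 1.73-fold lower under okadaic acid and MAPK9 1.54-fold lower. The MAPK9 value rests on the brighter probe, since the second was 1.12-fold lower, and it was within the threshold without scaling (-0.23), with the median over probes (-0.39) and with normexp background correction (-0.53). Without scaling MAPK8IP3 was within the threshold too (-0.39). The median of all genes in this comparison moved with the scaling, from -0.02 to 0.52, and was 0.13 as reported. Without scaling, 77.2% of the genes called were higher under okadaic acid, beside 56.9% with the 75th percentile. Against the control, the corresponding shares for okadaic acid were 62.0% and 49.4%. Relative to the median gene, MAP3K1, MAP3K11 and MAP3K5 were 1.40, 1.13 and 0.91 higher and MAPK8IP3 was 0.92 lower.

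**Figure D3:**
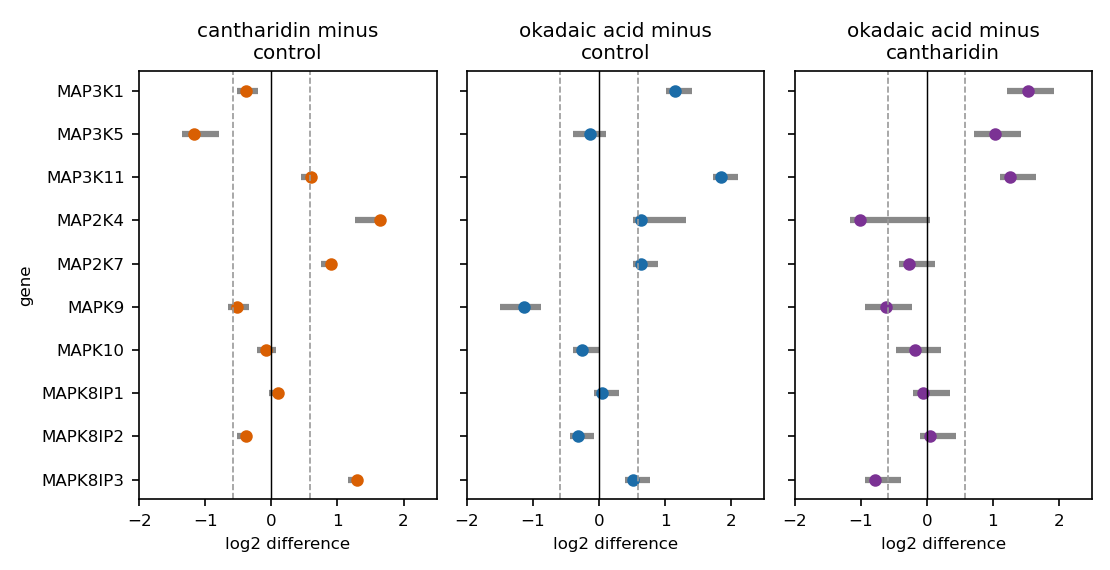
Log2 difference of each member in 3 comparisons, with the reported value as a point and the range over up to 10 other ways of processing as a grey bar; dashed lines mark 1.5-fold. MAP3K1 and MAP3K11 under okadaic acid and MAP2K4, MAP2K7 and MAPK8IP3 under cantharidin stay right of the upper line throughout, while the bar of MAP2K4 between the agents runs from -1.16 to 0.06.

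The genes around the members were described from 5 lists of 82 genes. The counts of every list are to be read beside those of all genes compared. Under cantharidin, 27.5% of all genes were higher and 34.1% lower, with a median of -0.16. Under okadaic acid, 28.1% were higher and 28.8% lower, with a median of 0.01. Whether any list departed from these shares was not tested. Among 20 other MAP3K and MAP4K kinases that feed into JNK, 7 were higher and 5 lower under cantharidin (median -0.31), and 9 were higher and 2 lower under okadaic acid (median 0.46). The lower genes were MAP3K3, MAP3K4, MAP3K12, MAP3K20 and MAP4K4 under cantharidin, and MAP3K12 and MINK1 under okadaic acid. MAP3K4 was lower on its brighter probe only (-0.71), since the other gave 0.17 under cantharidin. MAP3K9, which encodes MLK1, a mixed-lineage kinase like the product of MAP3K11, read 45.5 in the control, 497 under cantharidin and 1070 under okadaic acid. Those signals gave differences of 3.59 and 4.30, though its other probe gave 0.04 and 2.09. The control signal was only 1.30 times the lowest measured one, and other ways of processing gave differences down to 1.81 and 2.76. TAOK1, a kinase of the TAO family, was 1.46 and 1.68 higher on the log2 scale. Its control signal was 1.83 times the lowest measured one, and other ways of processing gave down to 0.68 and 0.86. MAP3K12, which encodes the kinase DLK, differed by -1.24 and -1.49. MAP3K20, which encodes the ribosomal stress sensor ZAK, gave -0.86 and -0.52 on its brightest probe, but its 3 probes spanned -0.86 to 1.88 with cantharidin and -0.52 to 2.16 with okadaic acid, so its direction depends on the probe.

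Of 20 other scaffolds, adaptors and regulators, 7 were higher and 2 lower (TAB1 and GSTP1) under cantharidin, with a median of 0.36. Under okadaic acid 8 were higher and 3 lower (TAB1, ARRB2 and AXIN1), with a median of 0.15. TAB3 differed by 2.36 and 2.57 and TAB1 by -2.03 and -2.37, and both encode partners of the kinase TAK1. TAB1 under okadaic acid was only 1.16 times the lowest measured signal, and other ways of processing brought its differences to -1.28 and -1.48. GADD45G, a stress-induced activator of MAP3K4, read 2609 in the control, 5807 under cantharidin and 114460 under okadaic acid, which is 2.45-fold and 36.8-fold higher. AXIN1, a scaffold that binds MEKK1, was within the threshold with cantharidin (0.32) and lower by 2.83-fold with okadaic acid (-1.50).

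Of 16 JNK substrates and AP-1 factors, 15 were compared. Under cantharidin 5 were higher (FOS, FOSB, FOSL2, ATF2 and ATF3) and 2 lower (ELK3 and ITCH), with a median of 0.26. Under okadaic acid 7 were higher and 3 lower (ELK1, ELK3 and ITCH), with a median of 0.44. ITCH was not well above background on either treated array, and its noise between spots was wide (SD 0.52 and 0.36 on the log2 scale). Under okadaic acid only a bound of at least 3.25-fold lower can be given. Under cantharidin its dim signal (24.5) lay above that array's lowest measured one, so 5.86-fold lower is a plain ratio and no minimum. ATF3, a stress-induced member of the ATF family, had signals of 1688, 130202 and 25724 in the control, cantharidin and okadaic acid arrays on its brightest probe, with differences of 6.41 and 3.67, while the lowest of its 4 probes gave -0.15 and -0.47. FOSB, an AP-1 subunit, differed by 3.97 and 4.03. ELK3, a factor of the ETS family, differed by -0.74 and -0.68, and ELK1 by -0.53 and -0.77 on its brightest probe, although its highest probe gave 0.34 under okadaic acid and the median over its probes was -0.22.

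Of 14 phosphatases, 7 were higher under each agent, with medians of 0.45 and 0.55. Over all genes compared, 27.5% were higher under cantharidin and 28.1% under okadaic acid, with medians of -0.16 and 0.01. The lower ones were DUSP1, DUSP2, DUSP19 and PPM1B under cantharidin and DUSP19 and DUSP22 under okadaic acid. DUSP19 was not well above background on either treated array, and its noise between spots was wide (SD 0.54 and 0.36 on the log2 scale). Under cantharidin only a bound of at least 4.33-fold lower can be given. Under okadaic acid its dim signal (60.5) lay above that array's lowest measured one, so 2.06-fold lower is a plain ratio and no minimum. The 3 probes of PPM1B ran from -0.73 to -0.09 under cantharidin. DUSP8 counted as higher under cantharidin on its brightest probe, but its 3 probes ran from -1.54 to 1.39 there, so its direction depends on the probe. DUSP6, best known for acting on ERK, differed by 2.22 and 1.99, and DUSP16, which acts on JNK and p38, by 1.24 and 1.20. DUSP22 was within the threshold under cantharidin (-0.04) and at -0.98 under okadaic acid. DUSP1, which removes phosphate from JNK, p38 and ERK, was lower by 2.47-fold with cantharidin and higher by 1.503-fold with okadaic acid, just past the threshold. Of the 12 kinases of the ERK, p38 and ERK5 arms, 4 were higher and 5 lower under cantharidin (median 0.11), and 4 were higher and 4 lower under okadaic acid (median 0.19). Lower under cantharidin were MAPK3, MAPK11, MAPK12, MAPK14 and MAP2K5. MAPK12 was not well above background on either treated array, with bounds of at least 3.70-fold lower for cantharidin and 1.83-fold lower for okadaic acid. Higher under okadaic acid were MAPK7, MAPK13, MAP2K1 and MAP2K3, and lower were MAPK3, MAPK11, MAPK12 and MAP2K5. The 3 probes of MAP2K3 spanned -0.58 to 0.92 under okadaic acid, so its direction depends on the probe. The second MAPK11 probe gave -0.08 there, within the threshold. MAPK7, which encodes ERK5, differed by 2.20 and 1.74, MAPK3, which encodes ERK1, by -1.49 and -1.69, and MAP2K5, the kinase of ERK5, by -0.71 and -2.77. MAP2K5 under okadaic acid was only 1.29 times the lowest measured signal, and other ways of processing brought its differences to -0.47 and -1.75. MAPK13, a p38 gene, differed by 2.20 and 0.62, the second only on its brighter probe, since the other gave -0.01. Genes named in these lists because a count was 5 or fewer, and DUSP8, were chosen after their values were seen.

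**Figure D4:**
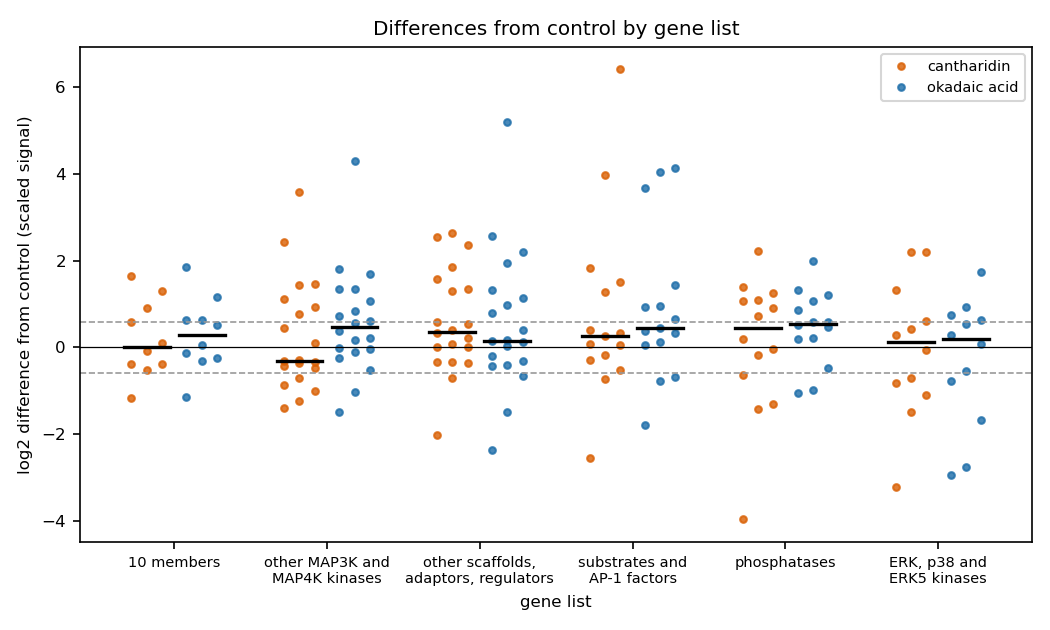
Log2 differences from control (scaled signal) of the 10 members and of 5 lists of neighbouring genes under cantharidin (orange) and okadaic acid (blue). Each point is a gene, black bars are list medians and dashed lines mark 1.5-fold. The members lie between -1.18 and 1.85, while single genes of the other lists reach 6.41 (ATF3 under cantharidin) and 5.20 (GADD45G under okadaic acid).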

How the data were processed

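Per the file headers, the deposited values of each array were spot intensity read by Feature Extraction 11.0.1.1, background-subtracted and detrended within the array, with probes annotated on hg19. Flags for outlier, saturated and background spots were also deposited. The authors further deposited a table of normalized log2 values, and how it was made is not given in the sources used here. It was used as an alternative. Groups were taken from the sample titles.

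Spots flagged as outliers were left out and the log2 intensity of the others was averaged per probe (34041 of 34127 transcript probes), and each array's 75th percentile was subtracted (784, 713 and 936 for control, cantharidin and okadaic acid). A probe entered a comparison if either of its arrays had it well above background, and was called at 1.5-fold, the threshold of the study. Where 1 array was dim, the fold was taken over the dim signal or that array's lowest measured signal, whichever was higher. It is a bound where the lowest measured signal was the higher, and otherwise a plain ratio to a dim signal. Symbols came from RefSeq accessions matched without version (25705 probes, 19699 genes), and the probe of highest mean log2 signal stood for a gene. Noise between spots came from probes with 10 spots, at most 1 of them flagged, as the square root of the mean variance of the 100 nearest in brightness. The members and lists were chosen with earlier results of these data known. All members are named, and of each other list the 2 genes with the largest rise and the 2 with the largest fall by the mean of both agents' differences among genes measured on all arrays, plus any gene past 1.5-fold in opposite directions. One gene of the lists is not reported here by name. The number of arrays limits the precision, and no p-value was computed. The alternatives changed the scaling, background correction (limma 3.58.1, normexp, offset 50), filter, threshold, probe rule and table. Scripts were tested on simulated data and run in Python 3.11.15 and R 4.3.3.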

Additional observations from a re-analysis of the deposited data

Results flagged for a closer look

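Among the lists, 2 genes were past 1.5-fold in opposite directions under the agents, and neither is one of the 10 members. The share of all genes that did so was not counted, so whether 2 is few or many cannot be said. DUSP1 differed from the control by -1.30 under cantharidin and 0.59 under okadaic acid on the log2 scale, with signals of 106519 in the control, 39176 under cantharidin and 191125 under okadaic acid. The second value lay just past the threshold and was 0.47, within it, with median scaling. DUSP2, a phosphatase of activated lymphocytes that acts on ERK and p38, differed by -1.42 and 1.32, with signals of 349, 118 and 1039. Each was read by a single probe on 1 array per group, and the difference between the agents was not tested.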

How the results depend on the processing

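Of 72 counts of members under other settings, 61 stayed within 1.5 times the reported count, as did 218 of 240 counts of the lists. Part of the 787 differences of single genes and probes could not move, so the next count is no measure of stability. A changed filter leaves a value as it is, and the median over probes leaves genes with 1 probe unchanged. Raising dim signals leaves probes measured on both arrays unchanged. Of all 787, 634 moved by less than the noise between spots and 2 that had been past 1.5-fold changed sign. Both did so when a gene was the median over its probes, MAP2K4 to 0.056 between the agents and MAP3K20 to 1.80 under cantharidin. MAP3K20 also changed sign there under okadaic acid, from -0.52, within the threshold, to 2.09. At 2-fold, 3344 of all 16644 genes were higher and 3707 lower under cantharidin. Under okadaic acid 3033 of 16166 were higher and 3067 lower. By named probe, 5790 of 21101 were higher and 7238 lower under cantharidin, and 5550 of 20365 higher and 6062 lower under okadaic acid. Counts by probe have a larger total than counts by gene, so a larger count by probe is no rise in itself. For the members under cantharidin, 2 were higher at 2-fold, and the lower count was 2 without scaling and with the median over probes and 3 by probe. Under okadaic acid 2 were higher with median scaling, with normexp background correction and at 2-fold, and 3 were lower by probe. Of all 16166 genes, 4016 were higher with median scaling and 3598 with normexp. The members' median under okadaic acid was 0.16 with median scaling, 0.53 without scaling, 0.51 for genes measured on all 3 arrays and 0.046 by probe. Between the agents, 1 member was lower without scaling, at 2-fold and with the median over probes, and the median was 0.28 without scaling. Among the other MAP3K and MAP4K kinases, probes gave 11 higher under cantharidin and 14 under okadaic acid, and 3 genes were lower under cantharidin at 2-fold and with the median over probes. Among the scaffolds and adaptors, probes gave 12 and 14 higher, and 1 gene was lower under cantharidin at 2-fold. Among the substrates, 9 probes were higher under cantharidin, 1 gene was lower there with the filter on all 3 arrays and at 2-fold, and under okadaic acid 4 were higher at 2-fold and 1 was lower without scaling and at 2-fold. Among the phosphatases under okadaic acid, 4 were higher at 2-fold and 1 was lower with normexp, with the filter on all 3 arrays and at 2-fold, beside 4 lower by probe. Among the ERK, p38 and ERK5 kinases, 3 were lower under cantharidin with normexp and at 2-fold, and under okadaic acid 1 was higher at 2-fold and 2 with the median over probes. The cause of these changes was not tested beyond what each setting does by construction.

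The 3 arrays lay on one slide, so position and group cannot be told apart. One alternative, raising dim signals to the lowest measured one, was chosen after seeing the data. No paired analysis was possible because each group has 1 array. MAPK10 and the dimmer MAP3K5 probe are limited by signal over background.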
